A study of Mus musculus with 8 samples.

Results

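The control arm of a mosaic mouse model was examined, in which the T1 haematopoietic stem cells (HSC) of WT mice were set against the T2 HSC of WT mice. The members were the 4 libraries titled Bcl11aWT, 2 of T1 and 2 of T2, out of 8 in the series. All 4 came from bone marrow of Vav1-cre iMOS Bcl11a-WT mice aged 2 to 3 months (3 months in the design text), and the remaining 4 from Bcl11a-MUT mice of the same model, again 2 of T1 and 2 of T2. Vav1-cre, a Cre recombinase driven by the blood-cell gene Vav1, was carried by both genotypes. The study asked what Bcl11a does inside HSC and how cells that overexpress it affect wild-type HSC beside them, and the WT arm holds the same pair of sorted populations from WT mice. What marks T1 and T2 cells, and whether a T1 and a T2 library came from the same mice, are matters that the sources used here do not give. The labels do not say whether libraries of a population came from separate animals. Replicate 1 of each population had peaks at Y-linked genes and replicate 2 had none, so the 2 libraries of a population did not come from the same mouse or the same pool of mice. P-values measure the spread between these libraries.

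ATAC-seq uses a transposase that cuts accessible DNA and inserts sequencing adapters, so fragments pile up at promoters, enhancers and other sites that are not wrapped tightly in nucleosomes. Long-term HSC are rare, mostly quiescent marrow cells that renew themselves and give rise to all blood lineages. Their open chromatin is known for enhancers of factors such as MECOM, MEIS1, HLF and ERG. A mosaic model marks several cell populations within 1 animal, so that cells which differ in a gene share a niche, and a control mosaic shows how far marked populations differ when the gene is not altered. BCL11A, the protein at issue, is a zinc-finger repressor known for silencing fetal globin and for its role in making lymphocytes. In bulk libraries, a site that is open in fewer cells and a site that is less open in each cell cannot be told apart.

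The deposited lists held 71683 and 72719 peaks in WT T1, against 67271 and 62232 in WT T2. Both WT T1 lists were the longer, but the difference of 7450 peaks could not pass a test, because 2 libraries against 2 allow no p below 0.333, which it reached (exact two-sided permutation test). Depth moved with it: the genome background recovered from the lists, in fragments per position, stood at 3.24 and 3.29 for WT T1, 2.45 and 1.89 for WT T2, and 2.03 to 3.38 for MUT. Against the labelled cell type, 92% of 25 HSC identity genes had, in each of the 4 libraries, a called region reaching within 1 kb of an end of the gene. The same share came to 87.5% for the megakaryocyte and platelet list, 76% for stromal and endothelial, 56% for erythroid, 52% for B lymphoid, 48% for granulocyte and monocyte, and 44% for T and NK lymphoid markers, beside 64.5% of all 21887 protein-coding genes. Lists that are not cell type markers were as high. The share was 96% for AP-1 and immediate early genes and for interferon response genes. It was 92% for TGF-beta and niche signalling and for BCL11A and its repressor partners. A high share alone therefore does not mark HSC. On the first 90 Mb of chromosome Y, replicate 1 had 5 peaks in each population and replicate 2 had 0 in each. They lay at the Y-linked genes Kdm5d, Eif2s3y, Uty and Ddx3y and near the pseudogene Rhoay-ps3. A region inside Xist, the X-inactivation RNA gene, at chrX:103481345-103482331, was called in replicate 2 of WT T1 (fold enrichment 4.33) and of WT T2 (4.705) and in neither replicate 1. Other Xist regions did not follow that split: one inside the gene (chrX:103477436-103477948) had 9.67 and 5.26 in WT T1 and 6.29 in WT T2 replicate 2 with no peak in WT T2 replicate 1, and one near it (chrX:103483184-103484485) was called in all 4 WT libraries. The Y signal was therefore split evenly between T1 and T2, and each replicate number holds 1 library of each population, too few for a value within a number.

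At a few genes the whole stretch before the transcript start lay in a region of 1 population. The 250 bases upstream of the start were wholly inside a region called in both WT T1 and neither WT T2 library for 12 genes, and inside one called in both WT T2 and neither WT T1 library for 6 genes, out of 32619 windows. The 3 with the highest fold enrichment in each direction are printed because they show what differed at promoters. Sequences are from RefSeq (GRCm38.p6, the same build as mm10), 5′ to 3′ on the gene's strand. The first 3 are those of WT T1: Rapgef2, an exchange factor for RAP1 GTPases (chr3:79145876-79146125, minus strand), Scg5, a neuroendocrine chaperone (chr2:113829092-113829341, minus), and Akr1b7, an aldo-keto reductase (chr6:34412112-34412361, plus). The others are those of WT T2: Rasef, a RAB GTPase with EF hands (chr4:73790603-73790852, minus), Mpped1, a metallophosphoesterase gene (chr15:83779773-83780022, plus), and P2ry13, a receptor for ADP (chr3:59210883-59211132, minus). Capitals mark the matches to any of 5 motifs searched on both strands.
Rapgef2: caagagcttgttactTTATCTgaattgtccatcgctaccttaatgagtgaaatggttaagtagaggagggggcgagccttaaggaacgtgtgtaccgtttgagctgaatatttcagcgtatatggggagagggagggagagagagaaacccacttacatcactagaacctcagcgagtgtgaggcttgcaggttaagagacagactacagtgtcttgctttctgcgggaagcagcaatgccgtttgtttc
Scg5: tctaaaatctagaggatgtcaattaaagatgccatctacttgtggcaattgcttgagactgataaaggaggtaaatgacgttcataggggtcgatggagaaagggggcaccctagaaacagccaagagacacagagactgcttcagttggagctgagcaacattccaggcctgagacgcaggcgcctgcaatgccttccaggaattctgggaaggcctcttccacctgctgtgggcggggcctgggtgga
Akr1b7: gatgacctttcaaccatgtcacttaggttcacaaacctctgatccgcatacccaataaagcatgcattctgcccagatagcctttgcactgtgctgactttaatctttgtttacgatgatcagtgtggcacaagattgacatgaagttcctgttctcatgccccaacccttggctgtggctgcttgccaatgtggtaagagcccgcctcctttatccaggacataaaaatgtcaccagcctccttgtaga
Rasef: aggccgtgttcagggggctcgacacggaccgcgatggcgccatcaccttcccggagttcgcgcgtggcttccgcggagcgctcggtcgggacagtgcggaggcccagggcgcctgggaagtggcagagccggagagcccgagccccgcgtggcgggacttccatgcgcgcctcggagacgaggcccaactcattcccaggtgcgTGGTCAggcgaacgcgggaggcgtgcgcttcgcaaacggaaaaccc
Mpped1: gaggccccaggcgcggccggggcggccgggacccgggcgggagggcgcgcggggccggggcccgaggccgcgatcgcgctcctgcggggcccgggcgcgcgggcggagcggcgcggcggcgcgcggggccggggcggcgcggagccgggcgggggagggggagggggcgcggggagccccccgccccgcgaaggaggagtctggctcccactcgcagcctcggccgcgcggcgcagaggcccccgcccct
P2ry13: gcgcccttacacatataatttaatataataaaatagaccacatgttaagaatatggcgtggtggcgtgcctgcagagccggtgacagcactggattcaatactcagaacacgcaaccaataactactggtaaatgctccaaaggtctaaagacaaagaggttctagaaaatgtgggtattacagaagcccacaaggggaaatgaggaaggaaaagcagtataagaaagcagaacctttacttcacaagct

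Of the motifs, the BCL11A core TGACCA was present in 11.4% of all windows of this length, the GATA motif AGATAA in 10.02%, the AP-1 motif TGANTCA in 6.78%, the RUNX motif TGTGGTT in 4.41% and the ETS motif CAGGAAGT in 2.71%. The searched motifs did not overlap in the printed windows. Rapgef2 held 1 GATA match and Rasef 1 BCL11A match, each on the reverse strand. No match in the other 4 says only that these letters are not in those windows. The sequences differed in composition within T2: GC content was 47.2% at Rapgef2, 52% at Scg5 and 46.8% at Akr1b7, against 70.8% at Rasef, 88.8% at Mpped1 and 41.6% at P2ry13, with a median of 52.4% over all windows. The Rapgef2 region had fold enrichments of 7.07 and 6.52 in WT T1, the Scg5 region 6.56 and 6.33, and the Akr1b7 region 5.89 and 7.69, and none was called in WT T2. All 3 were called in all 4 MUT libraries as well, at 4.98 to 7.36. Of the T2 promoters, Rasef had 5.99 and 5.80 in WT T2, Mpped1 5.51 and 6.91, and P2ry13 5.08 and 5.17, with no peak in WT T1. Rasef and Mpped1 were also called in all 4 MUT libraries, and P2ry13 in 3 of them. None of these 6 promoters was called in both libraries of 1 population and neither of the other in MUT mice.

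Peaks of the 4 lists on chromosomes 1 to 19 and X merged into 82951 regions where they overlapped by at least 1 bp, and 53590 of them (64.6%) had a peak in each of the 4 libraries. A region called in both WT T1 and neither WT T2 library is named T1-only here, and the reverse T2-only. As deposited, 3584 regions were T1-only, which is 4.32% of all regions, and 580 were T2-only, which is 0.699%. Whether a single region was called was not tested, since 2 libraries against 2 allow no permutation p below 0.333. A further 11871 regions (14.3%) were called in 1 library, and the largest set called in 3 libraries (5056 regions) lacked only WT T2 replicate 2, the shallowest library. When each list was cut to its 62232 peaks with the highest −log10 p, the counts became 1737 T1-only (2.34%) and 1406 T2-only (1.89%) of 74362 regions. The T1-only share of both kinds was 86.1% as deposited and 55.3% with equal numbers of peaks. When summit pileups were thinned to the background of the shallowest WT library, 2531 (3.18%) were T1-only and 925 (1.16%) T2-only, a T1-only share of 73.2%. The excess of T1-only regions was smaller under both treatments, and T1-only regions were the more numerous in every setting tried. Lists of equal length draw the counts of both kinds together whatever made the WT T1 lists longer. The part of depth in the excess was not tested.

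Of the 3584 T1-only regions, 1492 (41.6%) were still T1-only in the equal-number lists and 2395 (66.8%) in the thinned ones. Of the 580 T2-only regions, 396 (68.3%) and 538 (92.8%) were still T2-only. The equal-number lists held 1406 T2-only regions, so most of those were not T2-only as deposited. The Jaccard index, the shared base pairs of 2 lists over their union, was 0.745 for the WT T1 pair and 0.702 for the WT T2 pair. Pairs of a T1 with a T2 library had 0.701, 0.657, 0.704 and 0.670. The T2 pair was no more alike than WT T1 replicate 2 and WT T2 replicate 1, while the T1 pair was the most alike of the 6, and these values were not tested.

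**Figure D1:**
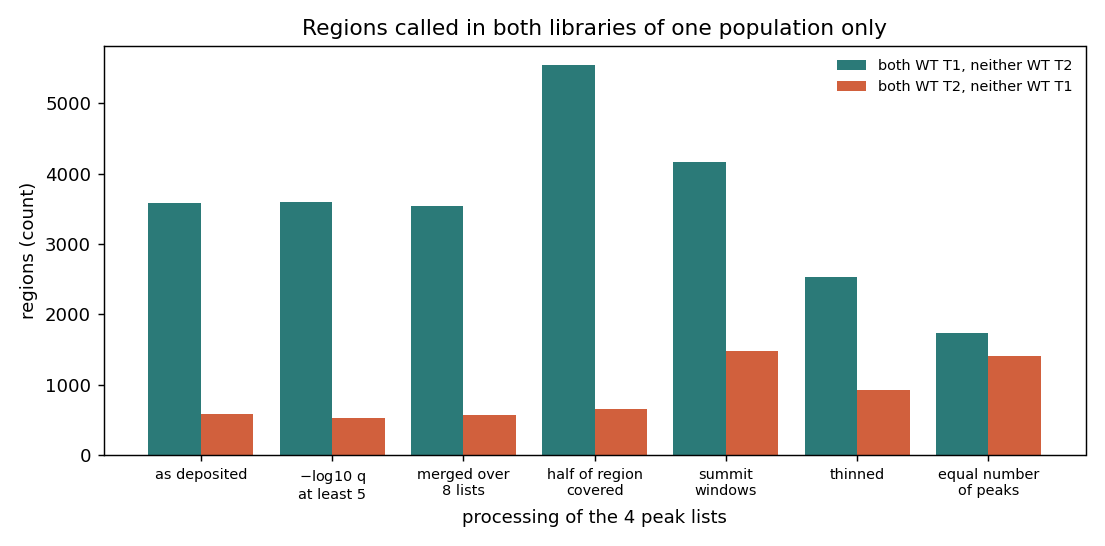
Number of regions (y axis) called in both WT T1 and neither WT T2 library (green) or in both WT T2 and neither WT T1 library (orange), under 7 ways of processing the 4 peak lists (x axis). The lists as deposited gave 3584 and 580 regions, and those with equal numbers of peaks 1737 and 1406.

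The strongest T1-only regions were spread over 9 chromosomes. The region inside Cdca2, which directs a phosphatase to chromosomes at the end of mitosis, at chr14:67674661-67675082, had a fold enrichment of 13.4 and 15.1 in WT T1, from summit pileups of 56 and 64 fragments. It was called in neither WT T2 library, but in MUT T1 replicate 1 (10.9) and in both MUT T2 libraries (11.2 and 9.02). The region inside Smc1b, a cohesin subunit of meiosis, at chr15:85070492-85070830, had 13.9 and 12.4 in WT T1 and was called in 1 MUT library, MUT T1 replicate 1, at 7.07. It was the one of the 12 strongest that fewest libraries called. A region with no gene within 50 kb, at chr16:49278467-49278931, had 13.4 and 12.1 in WT T1. Inside Fmn1, a formin that nucleates actin filaments, the region at chr2:113430896-113431352 had 12.3 and 11.7 in WT T1, and inside Uqcc1, an assembly factor of respiratory complex III, the region at chr2:155848246-155848839 had 13.5 and 11.01. The Cdca2, chromosome 16, Fmn1 and Uqcc1 regions shared 1 pattern over the series: each was called in 5 libraries and missing from WT T2 replicates 1 and 2 and from MUT T1 replicate 2, the 3 with the lowest background.

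Next came the region inside Prune2 (chr19:16984900-16985185, 11.6 and 11.2 in WT T1), the one inside Kcnip4, which encodes a regulator of voltage-gated potassium channels (chr5:49090075-49090536, 11.1 and 11.4), and the one at the olfactory receptor gene Olfr701 (chr7:106815746-106816195, 12.2 and 10.9). Near Tnfsf10, which encodes the death ligand TRAIL, a region 6079 bp from the gene (chr3:27345487-27346002) had 10.8 and 10.95 in WT T1. The last 3 of the 12 were a region of chromosome 2 with no gene near (chr2:142967387-142967824, 10.8 and 11.7), one near Cacng7, a calcium channel subunit gene (chr7:3376774-3377115, 10.6 and 10.5), and one 45458 bp from Cadps2, a gene of vesicle release (chr6:23886414-23886852, 9.90 and 10.5). The Prune2, Olfr701, Tnfsf10, Cacng7 and Cadps2 regions were called in all 4 MUT libraries, which leaves the 2 WT T2 libraries as the ones that lacked them. All 12 stayed T1-only in the equal-number and the thinned lists. Both treatments only remove peaks, so WT T2 could not gain a call, and regions picked as the strongest are less likely to be lost.

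Among the T2-only regions 1 stood far above the rest. It lay inside Filip1l, a gene related to a filamin-binding protein, at chr16:57391457-57391673, was 217 bp wide, and had fold enrichments of 30.2 and 29.3 in WT T2. Neither WT T1 library called it, while MUT T1 replicate 2 (29.2) and MUT T2 replicate 2 (26.4) did. Its summit pileup was 277 and 281 fragments in WT T2 and 282 and 295 in those MUT libraries, nearly the same although their depth differed, and the 4 libraries that called it are the 4 with the lowest background. No list of regions prone to mapping artefacts was applied here, and the part of mapping in this region was not tested. The next T2-only region, near the mitochondrial carrier gene Slc25a54 (chr3:109062962-109063268), had 12.4 in both WT T2 libraries and was also called in both MUT T1 libraries and MUT T2 replicate 2 (9.99 to 12.7). A region of chromosome 6 with no gene near (chr6:24350666-24351178) had 11.6 and 12.3 in WT T2, and the region inside Akap14, an anchor of protein kinase A on chromosome X (chrX:37167068-37167500), had 11.02 and 12.8. Both of these were called in all 4 MUT libraries.

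Further T2-only regions lay near Zbed4, a zinc-finger gene (chr15:88743376-88743812, 10.4 and 12.2 in WT T2), inside Hmcn1, which encodes a protein of the extracellular matrix (chr1:150920253-150920537, 10.2 and 10.4), and inside Dennd1a, an activator of RAB GTPases (chr2:37925899-37926210, 11.3 and 10.02). Others lay inside Nudt11, an inositol phosphate phosphatase gene on chromosome X (8.99 and 10.02), 27696 bp from Cxcl5, a chemokine gene of neutrophil recruitment (11.02 and 8.98), and near Bloc1s4, a gene of lysosome-related organelles (8.70 and 10.4). A region on chromosome 18 (8.05 and 8.65) and one on chromosome 6 (9.28 and 7.95) with no gene within 50 kb completed the 12. All 12 stayed T2-only in the equal-number and the thinned lists, in which WT T1 likewise could not gain a call. The next region below them had a smaller fold enrichment of 7.83, and the next T1-only region 9.90. In the equal-number lists 3 other regions entered the 12 strongest T2-only ones: one near Zfp385b, a zinc-finger gene (chr2:77369302-77369573, 9.28 in WT T2 replicate 1), and a pair with no gene near, on chromosome 1 (chr1:95459329-95459765) and chromosome 4 (chr4:87455992-87456281). Each of these had been called in 1 WT T1 library as deposited.

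**Figure D2:**
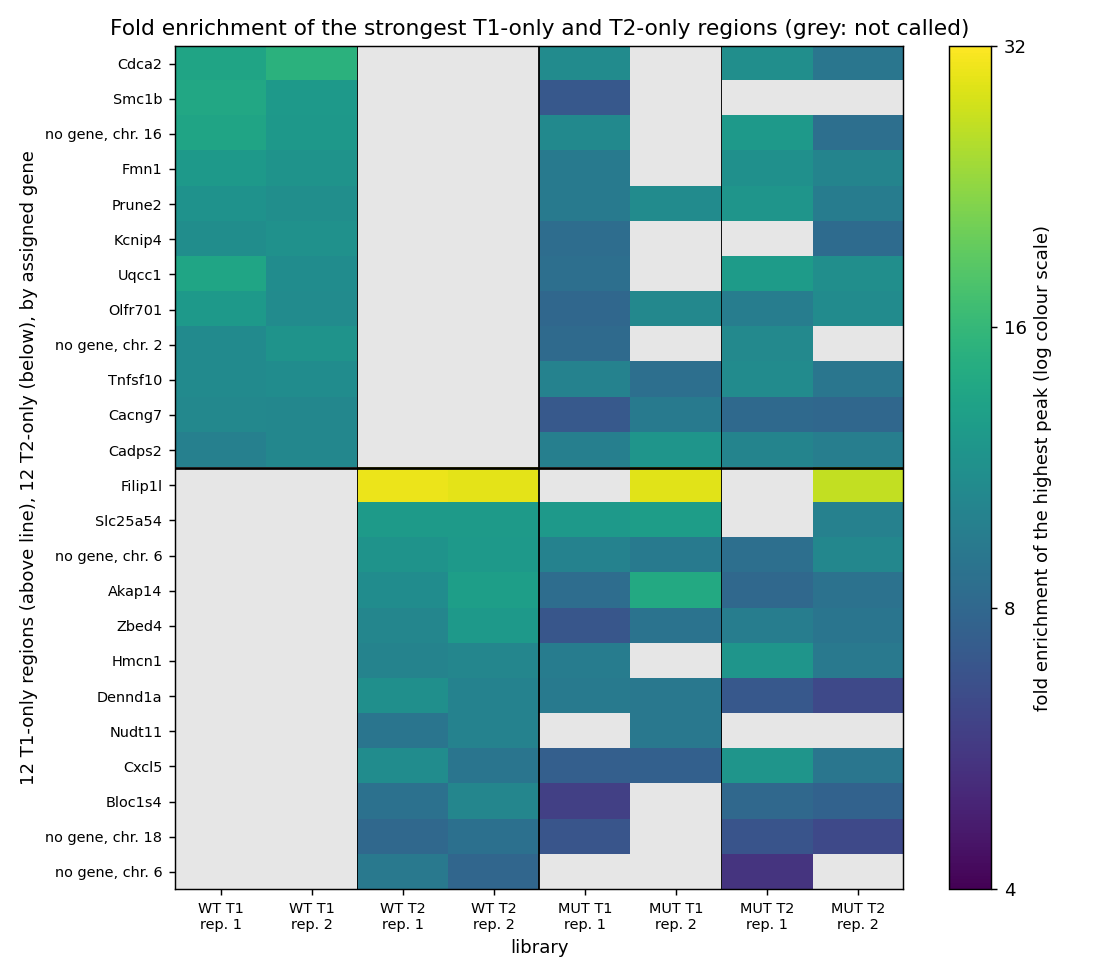
Fold enrichment (colour, log scale) of the 12 strongest T1-only regions (above the line) and the 12 strongest T2-only regions (below it) in each of the 8 libraries (columns), with grey where no peak was called. Most T1-only and T2-only regions were called in MUT libraries of both populations, and the Filip1l region, at 26.4 to 30.2, exceeded all others.

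As a class, the regions of 1 population were narrow and weak. Their median width was 435 bp for T1-only and 381 bp for T2-only regions, beside 831 bp for regions called in all 4 libraries. The median of the smaller fold enrichment was 4.24 for T1-only and 4.64 for T2-only regions, beside 6.60. Of the T1-only regions 75 had a smaller fold enrichment of at least 8 and 11 of at least 10, and of the T2-only regions 11 and 7. Their smaller −log10 q-value was below 5 in 12.2% of T1-only and 22.4% of T2-only regions, against 1.78% of regions called in all 4, and the weakest T1-only and T2-only regions stood at 3.07 and 3.16, just above the lists' limit of 3.00. Few were at gene ends: 4.52% of T1-only and 7.76% of T2-only regions had their midpoint no more than 1 kb from an end of a coding gene, against 24.0% of those called in all 4 and 17.3% of all regions. With equal numbers of peaks the shares were 3.45% for T1-only and 9.89% for T2-only regions, and after thinning 3.91% and 8.65%. T1-only regions were the less often at gene ends in each of these 3 settings, a difference that has no test over libraries. Regions called in 1 library only were narrow and weak too, with a median width of 277 bp and a median fold enrichment of 4.24. Of these, 5.14% were at gene ends as deposited, so such traits are not particular to regions of 1 population. By chromosome the T1-only share ran between 3.76% (chromosome 4) and 5.15% (X), and the T2-only share between 0.47% (chromosome 13) and 1.06% (chromosome 16).

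**Figure D3:**
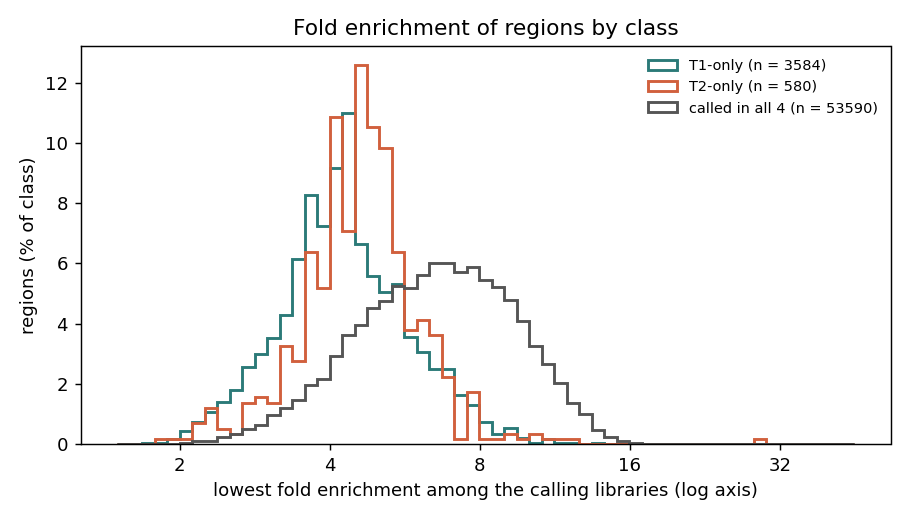
Distribution of the lowest fold enrichment among the calling libraries (x axis, log scale), as a percentage of each class (y axis), for T1-only regions (green), T2-only regions (orange) and regions called in all 4 libraries (grey). The T1-only and T2-only classes have medians of 4.24 and 4.64 and the regions called in all 4 one of 6.60.

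HSC identity genes had regions of both kinds. Of 353 regions at the 25 genes of that list, 21 (5.95%) were T1-only and 8 (2.27%) T2-only, beside 4.21% and 0.670% of 73011 regions at all genes, and 183 were called in all 4 libraries. With equal numbers of peaks 5 T1-only and 12 T2-only regions were found among 288 at these genes, beside 1470 and 1199 among 65706 at all genes. After thinning there were 12 and 12, beside 2174 and 797 at all genes. The order of both kinds at HSC identity genes thus depended on how the lists were processed. Mecom, a zinc-finger factor needed for HSC self-renewal, had 60 regions: 27 were called in every library, 5 were T1-only and 2 T2-only. The T1-only region at chr3:30226521-30227110 had 5.11 and 5.36 in WT T1. Within the gene a T1-only region (chr3:30507044-30507733, 2.26 and 2.45 in WT T1) was followed closely by a T2-only one (chr3:30509264-30509485, 2.28 and 2.00 in WT T2), and both kept their kind in the equal-number and the thinned lists. A further T2-only region of Mecom (chr3:30498468-30498918) had 4.25 and 4.53 in WT T2 and was called in both MUT T2 (3.06 and 3.46) and neither MUT T1 library. The T2-only region at chr3:30509264-30509485 had the opposite order in MUT: it was called in both MUT T1 (2.09 and 2.50) and neither MUT T2 library.

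Kit, the receptor for stem cell factor, had 2 T2-only regions near the gene, at 4.63 and 5.18 (chr5:75671401-75671865) and 4.57 and 4.31 (chr5:75657952-75658573) in WT T2. On the other side, Hlf, a transcription factor of quiescent HSC, had 3 T1-only regions at 2.17 to 3.43 in WT T1. Fgd5, whose expression marks long-term HSC, had 2 T1-only regions, at 5.19 and 5.13 (chr6:92057938-92058228) and 5.42 and 4.19 (chr6:92022451-92022953). Meis1, Erg, Hoxb5 and Gfi1 also had 2 T1-only regions each and Fli1 had 1, and Prdm16 and Mllt3 had 1 of each kind. At Hoxb5, a gene used to mark long-term HSC, the regions lay at chr11:96303117-96303440 (3.73 and 3.55 in WT T1) and chr11:96304589-96305133 (2.36 and 2.43), and no region of the gene was called in all 4 libraries. Runx1, Gata2, Tal1, Lmo2, Procr, Tek, Slamf1, Gfi1b, Ly6a, Cd34, Hoxa9 and Hoxa10 were among those with neither kind. These counts are of the lists as deposited. With equal numbers of peaks Erg, Gfi1 and Hlf had no T1-only and 1 T2-only region each, and Meis1 had 1 of each kind. Hoxb5 and Fgd5 kept 1 T1-only region each, and Kit kept 1 T2-only region. The T2-only regions of Erg, Gfi1, Hlf and Meis1 were not T2-only as deposited, and took that kind only once the lists were cut.

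Of the remaining lists, TGF-beta and niche signalling had 11 T1-only regions (4.82% of 228) and no T2-only region as deposited. Over all genes the shares were 4.21% and 0.670%, so its T1-only share lay near that of all genes. With equal numbers of peaks this list had 8 and 3 among 191, beside 1470 and 1199 among 65706 at all genes. After thinning it had 10 and 0, beside 2174 and 797 at all genes. The strongest was inside Acvr1, a type I receptor of bone morphogenetic proteins: it had 9.73 and 9.25 in WT T1 (chr2:58477090-58477402) and was called in no other library of the series. A second Acvr1 region (5.77 and 5.65) and one near the ligand gene Tgfb2 (5.89 and 6.76) were T1-only too. Smad7, which inhibits the pathway, had 2 T1-only regions, and Angpt1, the ligand of the TEK receptor, had 2 that no MUT library called (4.22 and 3.56, and 3.11 and 3.25). HSC aging genes had 6 T1-only regions and no T2-only region among 152 as deposited, but 4 and 5 among 131 with equal numbers. Near Cd38, an ectoenzyme gene, the region at chr5:43923894-43924397 had 10.8 and 9.32 in WT T1 and was called in all 4 MUT libraries. Vwf, the von Willebrand factor gene of platelet-biased HSC, had a T1-only region at 4.18 and 4.62. With equal numbers of peaks both of these stayed T1-only, but Cd38 and Vwf each had a T2-only region as well. Their smaller fold enrichments in WT T2 were 6.22 at Cd38 (chr5:43884980-43885359) and 5.87 at Vwf (chr6:125640510-125640996).

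Genes for BCL11A and its repressor partners had 8 T1-only regions and 1 T2-only region among 150, and 4 and 2 among 129 with equal numbers of peaks. They included a region inside Bcl11b, the paralog of Bcl11a that drives T cell commitment (7.40 and 7.82 in WT T1), and one inside Chd4, the remodelling ATPase of the NuRD complex (6.84 and 6.52). Arid1a, a subunit of BAF remodellers, had a T1-only region (2.83 and 2.25 in WT T1) and a T2-only region (1.91 and 1.89 in WT T2) within the gene. Markers of committed cells had T1-only regions in every list as deposited, and T2-only regions in some of them. B lymphoid genes had 7 T1-only and 2 T2-only regions among 147, granulocyte and monocyte genes 6 and 1 among 91, erythroid genes 4 and 1 among 80, T and NK lymphoid markers 3 and 0 among 108, and platelet and megakaryocyte markers 8 and 0 among 108. Their T1-only shares were 4.76%, 6.59%, 5%, 2.78% and 7.41% in that order, beside 4.21% over all genes, and the platelet and megakaryocyte share was the highest of the 14 lists. With equal numbers of peaks the first 3 lists had 4 and 2 among 125, 0 and 4 among 83, and 3 and 2 among 73. T and NK lymphoid markers then had 4 and 2 among 104, and platelet and megakaryocyte markers 4 and 1 among 96. Themis, a signalling gene of thymocytes, had a T1-only region at 8.96 and 7.46, the erythroid factor gene Gata1 one at 5.19 and 5.498, and Cd22 of B cells a T2-only region at 3.77 and 5.18. The part of such cells in the counts was not tested.

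Cell cycle and survival genes had 9 T1-only regions and 1 T2-only region among 167 as deposited, and 4 and 4 among 146 with equal numbers of peaks. Bcl2l1, which encodes the survival protein BCL-XL, had a T1-only region at 6.80 and 6.39 in WT T1, and the tumour suppressor gene Rb1 had 1 of each kind (4.24 and 4.99 for the T1-only region in WT T1, 4.93 and 6.22 for the T2-only region in WT T2). Inflammation and NF-kB genes had 6 T1-only regions and no T2-only region among 129 as deposited, but 2 and 2 among 114 with equal numbers of peaks. As deposited, 3 of the T1-only ones were at Nfkb1, which encodes a subunit of NF-kB (4.27 to 5.42). Interferon response genes (105 regions) and AP-1 and immediate early genes (140 regions) had 3 T1-only regions each and no T2-only region as deposited. With equal numbers of peaks the AP-1 list had 2 of each kind among 124 and the interferon list 1 and 0 among 97. Stromal and endothelial genes had 4 and 1 among 146 as deposited, and 3 and 1 among 128 with equal numbers. Over the 14 lists, the share of T1-only regions thus lay between 2.14% and 7.41%, on both sides of the 4.21% over all genes.

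**Figure D4:**
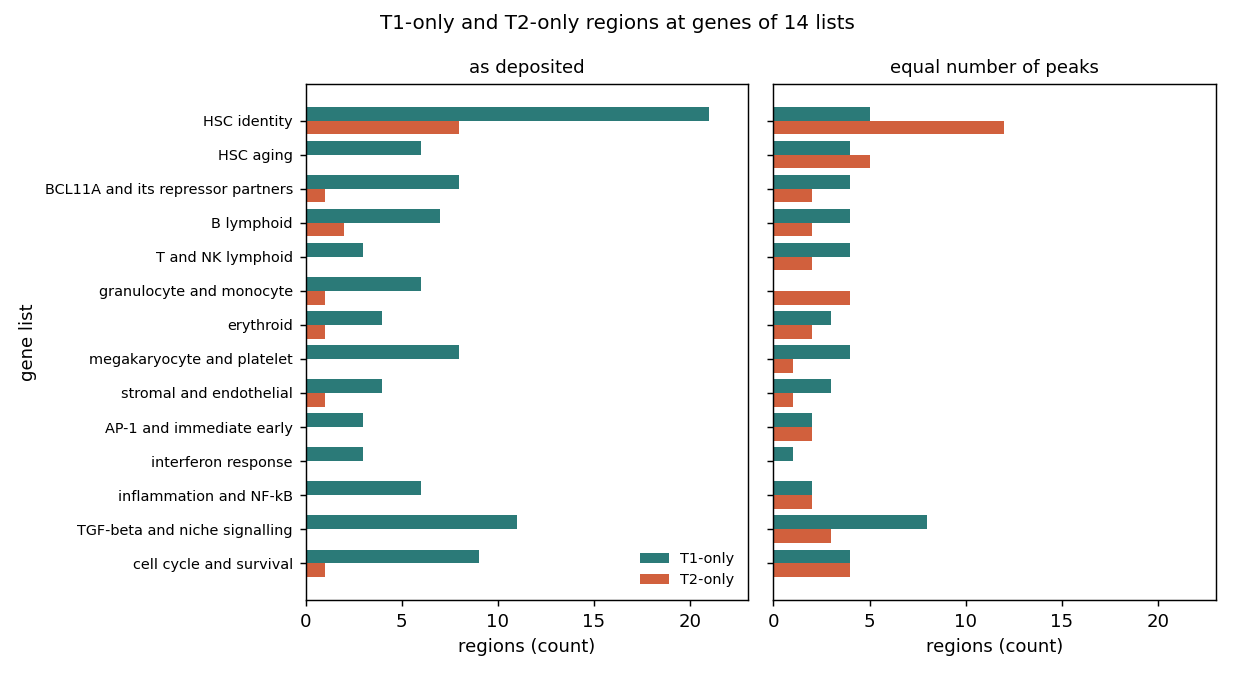
Number of T1-only (green) and T2-only (orange) regions (x axis) at the genes of 14 lists (y axis), in the lists as deposited (left) and with equal numbers of peaks (right). HSC identity genes had 21 T1-only and 8 T2-only of 353 regions as deposited, and 5 and 12 of 288 with equal numbers of peaks.

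The loci of the model itself were called in both populations. The Rosa26 locus, Gt(ROSA)26Sor, which is widely used to host transgenes, had 1 region (chr6:113076099-113077828), at 4.92 and 5.32 in WT T1, against 5.27 and 6.32 in WT T2. Vav1, whose promoter drives the Cre, had 6 regions, 4 of them called in every WT library, and none was T1-only or T2-only. Its highest region (chr17:57289879-57291438) had 7.16 and 7.46 in WT T1, against 7.75 and 8.48 in WT T2. The median fold enrichment of whole lists was also higher in WT T2 (7.25 and 7.66) than in WT T1 (6.43 and 6.52). Nothing is therefore read from the higher values at Rosa26 and Vav1. Bcl11a, with 5 kb on either side of its span, had 14 regions over these 4 lists, of which 7 were called in all 4 and 6 in 1 library. The remaining one, 2102 bp from the gene (chr11:24074175-24074749), was T1-only at 2.04 and 2.10, beside the class median of 4.24. It was not called in any list with equal numbers of peaks.

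The same regions were then looked up in the MUT libraries, where T1 and T2 carry the MUT label. Of the 3584 T1-only regions, 588 (16.4%) were called in all 4 MUT libraries, beside 67.1% of all regions, and 456 (12.7%) in none, beside 7.21%. Of the same regions 47 (1.31%) were called in both MUT T1 and neither MUT T2 library, beside 0.547% of all regions, and 161 (4.49%) in both MUT T2 and neither MUT T1 library, beside 1.5%. The reverse order was thus the more frequent. MUT T1 replicate 2, a shallow library, called 32.4% of the T1-only regions, while MUT T1 replicate 1 called 64.3% and the MUT T2 libraries 63.1% and 52.8%. Of all regions these libraries called 73.4%, 84.6%, 84.8% and 81.4% in that order, so each called T1-only regions less often. Of the 580 T2-only regions, 10 (1.72%) were called in both MUT T1 and neither MUT T2 library and 29 (5%) in both MUT T2 and neither MUT T1 library. With equal numbers of peaks, 35 T1-only regions (2.01%) had the T1 order in MUT and 56 (3.22%) the T2 order, beside 1.02% and 1.09% of all regions, and of the T2-only regions 56 (3.98%) had the T1 order and 35 (2.49%) the T2 order. The shares with the T1 or the T2 order all exceed those of all regions. Among all regions, those called in every library cannot differ, so nothing is read from that excess.

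Among the 47 regions with the T1 order in both genotypes, the strongest lay near Cd36, a fatty acid receptor gene (chr5:17765969-17766504). It had 8.90 and 6.59 in MUT T1 and 9.67 and 8.62 in WT T1. Next was a region inside Cd109, which encodes a TGF-beta co-receptor (chr9:78700827-78701143), with 7.53 and 5.93 in MUT T1 and 9.67 and 7.69 in WT T1. Among the 29 with the T2 order in both, the strongest lay near Capn1, a calpain protease gene (chr19:6018114-6018571), with 6.22 and 6.17 in MUT T2 and 6.89 and 8.14 in WT T2. That inside Paxbp1 (chr16:91030659-91031037) followed, with 6.17 and 5.61 in MUT T2 and 5.51 and 7.25 in WT T2. These 4 were T1-only or T2-only in the equal-number and the thinned lists as well, and they were picked from their values in both genotypes, so they are a description.

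In the 53590 regions called in all 4 libraries, fold enrichment was turned into a percentile within each library, which puts the lists on 1 scale. No region passed an adjusted p of 0.05 between WT T1 and WT T2 in limma (Benjamini-Hochberg over all regions): 0% were called higher and 0% lower, the lowest adjusted p was 0.516, and 5018 regions (9.36%) had an unadjusted p below 0.05. With the replicate number as a block 0 regions were called as well (lowest adjusted p 0.493). The same block on summit pileup in place of fold enrichment, an alternative chosen after seeing the data, changed the call: limma gave 488 regions higher and 431 lower in WT T1 (lowest adjusted p 1.48e-05). The median absolute difference of the population means was 6.38 percentile points. Single replicates differed by a median of 6.72 points in WT T1 and 7.35 points in WT T2. Means of 2 libraries vary less than single libraries, so these values do not show that populations differ no more than replicates. Percentiles of the populations did not overlap in 10498 regions that were higher in WT T1 (19.6%) and 12042 that were lower (22.5%). With 2 libraries against 2, 1 of the 6 arrangements puts a region wholly higher and 1 wholly lower. Much of these shares is thus set by the design, and they do not count regions that differ by population. Gaps of more than 20 points separated the populations in 585 regions that were higher in WT T1 (1.09%) and 415 that were lower (0.774%). Across regions, which are not independent replicates, Spearman's rho was 0.901 within WT T1, 0.886 within WT T2 and 0.854 to 0.877 between a T1 and a T2 library.

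The widest gap lay inside Stk38l, which encodes a kinase of the NDR family (chr6:146762184-146762716). Its percentiles were 88.9 and 91.2 in WT T1, against 22.0 and 20.4 in WT T2, from fold enrichments of 10.8 and 11.4 in WT T1, against 5.80 and 5.87 in WT T2 (limma adjusted p = 0.516). Kdm1b, which encodes a histone demethylase for H3K4 (chr13:47055870-47056860), stood at 80.2 and 76.7 in WT T1, against 18.5 and 20.4 in WT T2. The lowest WT T1 library exceeded the highest WT T2 library by 66.8 points at Stk38l and 56.4 points at Kdm1b, but neither passed the adjusted threshold on fold enrichment. Regions inside the ubiquitin ligase gene Sh3rf3, the primase subunit gene Prim2 and Nrros, and near Nmd3, an export factor of the large ribosomal subunit, were also among the 10 widest gaps. The rest of the 10 had no gene within 50 kb. In the other direction, a region inside Pacsin2, which encodes a membrane-bending protein (chr15:83425663-83426249), stood at 15.8 and 13.0 in WT T1, against 64.8 and 68.5 in WT T2, and one inside Nfx1, a zinc-finger factor gene (chr4:41007653-41008285), at 17.5 and 8.09 in WT T1, against 71.9 and 63.8 in WT T2. Larp4b, Unc5d, Cracd, Spon1 and Map2k5 followed among the named genes. In MUT the Stk38l region had 8.90 in MUT T1 replicate 1, no peak in MUT T1 replicate 2 and 8.07 and 9.02 in MUT T2, and the Pacsin2 region had 5.09 and 6.92 in MUT T1 and 7.20 and 6.87 in MUT T2.

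**Figure D5:**
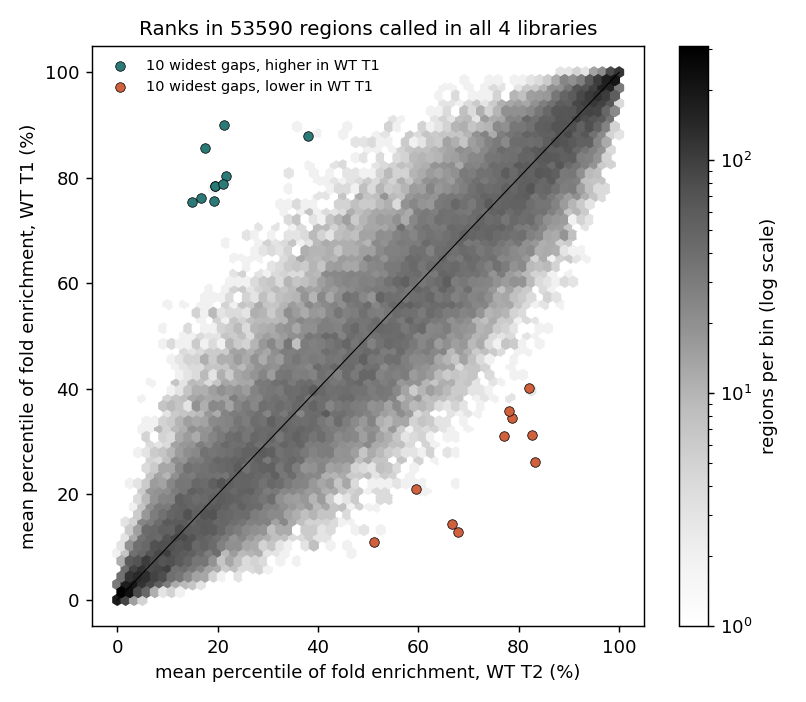
Mean percentile of fold enrichment in WT T1 (y axis) against WT T2 (x axis) for the 53590 regions called in all 4 libraries, shaded by the number of regions per bin (log scale), with the line of equality. Points mark the 10 widest gaps higher in WT T1 (green) and lower in WT T1 (orange), none of which passed the adjusted threshold in the fit on fold enrichment without a block. Summit pileup with the replicate block called 488 regions higher and 431 lower.

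Over the 14 lists, the median rank difference, WT T1 minus WT T2, ran between −2.02 and 0.28 points. It was −0.78 points over 183 regions at HSC identity genes, −1.03 over 88 at B lymphoid genes, 0.28 over 76 at T and NK lymphoid genes and −2.02 over 78 at inflammation and NF-kB genes, beside −0.32 over all 53590. At HSC identity genes 33 regions were higher (18.0%) and 46 lower (25.1%) in WT T1 without overlap. At B lymphoid genes 23 were higher (26.1%) and 7 lower (7.95%), although their median difference was below that over all regions. Over all 53590 regions these shares were 19.6% and 22.5%, and those of the HSC identity list lay near them. Regions within 1 kb of a gene end had a median percentile of 53.4 and 53.3 in WT T1, against 57.4 and 58.7 in WT T2, a difference of −4.66 points (exact two-sided permutation p = 0.333, the smallest the design allows). Depth moved with that too, since over the 12602 such regions called in all 8 libraries the value was 57.6 in MUT T1 replicate 2 and 56.0 and 57.2 in WT T2, the 3 shallowest, and 51.5 to 52.6 in the other 5. Its part in the difference was not tested.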

How the data were processed

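Per the labels' protocols, 5000 sorted nuclei per library were tagged with Nextera transposase and amplified by PCR. Bowtie2, SAMtools, MACS2 and build mm10 are named in the submitters' processing notes. Their versions and any shift of cut sites are not given in the sources used here. The authors deposited 1 list of narrow peaks per library, called per sample, and their own values per peak were a score, the summit's ratio to local background (fold enrichment), p-value and q-value (each as −log10), and the offset of the summit. The lowest deposited −log10 q-value was 3.00. A list records peaks above a threshold, so a region missing from it may be open below it.

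Peaks of the 4 WT lists were merged at 1 bp overlap, with chromosome Y apart. Summit pileup and background were solved for from the ratio and p-value that the authors deposited, since MACS2 adds 1 to both terms of the ratio and takes a Poisson tail. The pileup came out whole (within 0.001 of the deposited −log10 p) for at least 99.9986% of peaks per library, without 5 to 7 per library above 300. The lowest background of a list was its relative depth, and read totals are not in the lists. Equal-number lists kept the 62232 peaks with the highest −log10 p. Thinned lists scaled pileup and background to 1.89 and called again at a −log10 p of 4.90. Percentiles were tested with limma 3.58.1 in R 4.3.3 (trend, Benjamini-Hochberg, threshold 0.05), which was also tested on simulated data, and the rest ran in Python 3.11.15. A region belongs to the gene whose span (RefSeq, GRCm38.p6) holds its midpoint, or else to the nearest span end within 50 kb. The gene table holds no exons, so exon or intron was not analysed here. Alternatives were stricter lists, summit windows of 200 bp, regions covered to at least 50%, regions merged over 8 lists, leaving out each library, and for ranks the replicate block, normal scores, pileup and regions above the median fold enrichment.

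Regions named are the 12 T1-only and 12 T2-only ones with the highest smaller fold enrichment of their libraries (also for equal-number lists), examples of those at listed genes, all at 3 loci of the model, and the 10 widest rank gaps each way. The members, lists and tests were chosen with earlier results of these data known. Of 362 entries in 16 lists, Slamf5 did not match. Single values of some listed genes are not reported here, and the list totals include them. Replicate numbers were checked for pairing: the deviations of same-numbered libraries correlated at 0.0594 over regions. That value cannot decide whether the libraries are paired, since a shared source need not show in most regions. The main fit had no block, a choice that this value does not settle, and fits with the replicate block are given beside it. Replicate number did go with the Y-linked peaks in every group, and the labels do not say whether same-numbered libraries share mice. Region sequences were not analysed here.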

Additional observations from a re-analysis of the deposited data

Results flagged for a closer look

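Some regions had one order of the populations in WT and the opposite order in MUT. Of the T1-only regions, 161 were called in both MUT T2 and neither MUT T1 library. The strongest lay inside Nebl, which encodes an actin-binding protein (chr2:17422885-17423325), with 11.4 and 9.75 in MUT T2 and 10.8 and 8.62 in WT T1. Those inside Hs3st5 (chr10:36791745-36792199) and Lrit2 (chr14:37068506-37068957) followed. Of the T2-only regions, 10 were called in both MUT T1 and neither MUT T2 library, such as one near Unc93a2 (chr17:7420318-7420622), with 6.61 and 5.60 in MUT T1 and 6.96 and 7.95 in WT T2. The difference between the genotypes was not tested, and the 3 shallowest libraries are those of WT T2 and MUT T1 replicate 2.

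Chromosome Y was outside the merged regions. WT T1 replicate 1 had 5 peaks on its first 90 Mb and WT T2 replicate 1 also 5, against 0 in replicate 2 of each population. At Eif2s3y, a translation factor gene, the fold enrichment was 12.4 in WT T1 replicate 1 and 13.1 in WT T2 replicate 1, and at Kdm5d, a histone demethylase gene, 11.1 in WT T1 replicate 1 and 9.86 in WT T2 replicate 1. MUT libraries showed the same split, with 9 and 0 peaks in MUT T1 and 6 and 0 in MUT T2. The sex of the mice is not given in the labels.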

How the results depend on the processing

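T1-only regions numbered 3584 as deposited, 1737 with equal numbers of peaks and 5540 where peaks had to cover at least 50% of a region, and 2531 to 4161 in the other settings that kept all libraries. T2-only regions numbered 580 as deposited, 1406 with equal numbers, 925 after thinning and 1475 with summit windows. Leaving out 1 library in turn gave 5896 to 8668 T1-only and 1316 to 3085 T2-only regions, since fewer libraries then have to call or lack a region. Without WT T2 replicate 2, the shallowest, they were 5896 and 3085. The difference in peak number was 4930 to 9969 without each library. Limma called 0 regions higher and 0 lower with the replicate block (lowest adjusted p 0.493, with 5290 regions below an unadjusted p of 0.05) and under the other settings fixed at the outset (lowest adjusted p 0.0876 to 0.798). An alternative chosen after seeing the data, summit pileup in place of fold enrichment together with the replicate block, called 488 higher and 431 lower (lowest adjusted p 1.48e-05), 16 of the 20 named rank regions among them, and the cause was not tested. Of the 24 strongest T1-only and T2-only regions, the one near Cxcl5 lost its kind under 50% coverage and the others kept theirs in every setting run. Equal-number, thinned and stricter lists only remove peaks, so they could not add a call in the other population. With 2 replicate numbers, whether same-numbered libraries form pairs cannot be decided here. A list holds only peaks above its threshold, so a weak site missing from the WT T2 lists, the shallower ones, is not shown to be closed, and the part of depth in the T2-only counts was not tested.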
